A study of Xenopus laevis with 14 samples.

Results

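The genes foxi1 and slc26a4 are known from ionocytes, the ion-transporting cells of frog larval skin, and their levels were followed across every RNA library of this series. They were found by their symbols and are 2 of the 19921 genes in the deposited expression table. RNA came from animal caps of Xenopus laevis, which are explants of the embryonic ectoderm that form epidermis when cultured alone. Embryos were injected with RNA at the 2-cell stage and caps were cut at about stage 10. Each of 5 groups had 2 libraries. The prdm12-engR caps carried noggin RNA and RNA for prdm12 joined to engR, a repressor domain of engrailed, and were treated with retinoic acid. The prdm12-VP16 caps carried noggin RNA and RNA for prdm12 joined to VP16, a viral activation domain, with retinoic acid. The prdm12 caps carried noggin and prdm12 RNA with retinoic acid. The noggin + RA caps carried noggin RNA with retinoic acid and no prdm12 construct, and the wild-type caps had no treatment. The injected RNAs are given to whole caps and not to 1 cell type, and all 4 injected groups share noggin and retinoic acid. FLAG ChIP-seq was also done in this series and was not used here.

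In frog skin, ionocytes scatter among goblet and multiciliated cells and move protons, bicarbonate and salt with a proton pump, the V-ATPase, and a set of transporters. Foxi1 is a forkhead transcription factor of non-neural ectoderm that later directs ionocyte formation, and in the mouse inner ear Foxi1 is needed for Slc26a4. Slc26a4, or pendrin, is an anion exchanger that trades chloride for bicarbonate or iodide in ionocytes and, in mammals, in intercalated cells of the kidney. Noggin is an inhibitor of BMP signals, which otherwise direct ectoderm to epidermis, and retinoic acid gives neural tissue a posterior character.

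The table names genes by Xenopus tropicalis identifiers. foxi1 (ENSXETG00000025404) spans bases 414012 to 416339 of scaffold GL172949.1 and slc26a4 (ENSXETG00000012196) spans 3414224 to 3429485 of scaffold GL172681.1. No source used here names the build of these scaffolds. RefSeq's annotation of Xenopus laevis v10.1 lists 2 copies of foxi1 and 6 copies of slc26a4. Reads of these copies have 1 line per gene here, so copies cannot be told apart and reads could be lost or shared between close relatives.

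Libraries had between 11986697 and 15893668 reads on genes, and levels below are normalized reads, in which 1 read is worth between 0.813 and 1.32. The labels of prdm12-engR replicate 1 disagree, since its title says engR while its treatment field says VP16. Its column header in the expression table names engR. This library was grouped by its title, and results that rest on it are also given without it. The noggin + RA caps were neural by their markers, since 11 of 12 pan-neural genes rose and 20 of 21 epidermal lines fell against wild-type caps. Of all genes tested, 22.3% were called higher and 21.4% lower there. In bulk RNA, fewer cells of a type and less RNA per cell cannot be told apart.

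Both genes were high in wild-type caps and were left with between 1 and 50 reads per library in every other group. For foxi1, the 2 libraries had 15.6 and 51.5 normalized reads in prdm12-engR caps, 1.15 and 0.98 in prdm12-VP16 caps, 5.54 and 4.96 in prdm12 caps, 5.69 and 2.51 in noggin + RA caps, and 4674 and 2855 in wild-type caps. Every library of an injected group lay far below both wild-type libraries. The prdm12-engR libraries were the highest of the injected groups and the prdm12-VP16 libraries, with 1 read each, the lowest.

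For slc26a4, the 2 libraries had 9.39 and 9.27 normalized reads in prdm12-engR caps, 14.97 and 6.87 in prdm12-VP16 caps, 17.6 and 8.26 in prdm12 caps, 12.2 and 10.0 in noggin + RA caps, and 21272 and 8742 in wild-type caps. Wild-type libraries stood far above the rest. The 4 injected groups lay within one band, and each group's mean was between 0.0622% and 0.0860% of the wild-type mean.

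**Figure D1:**
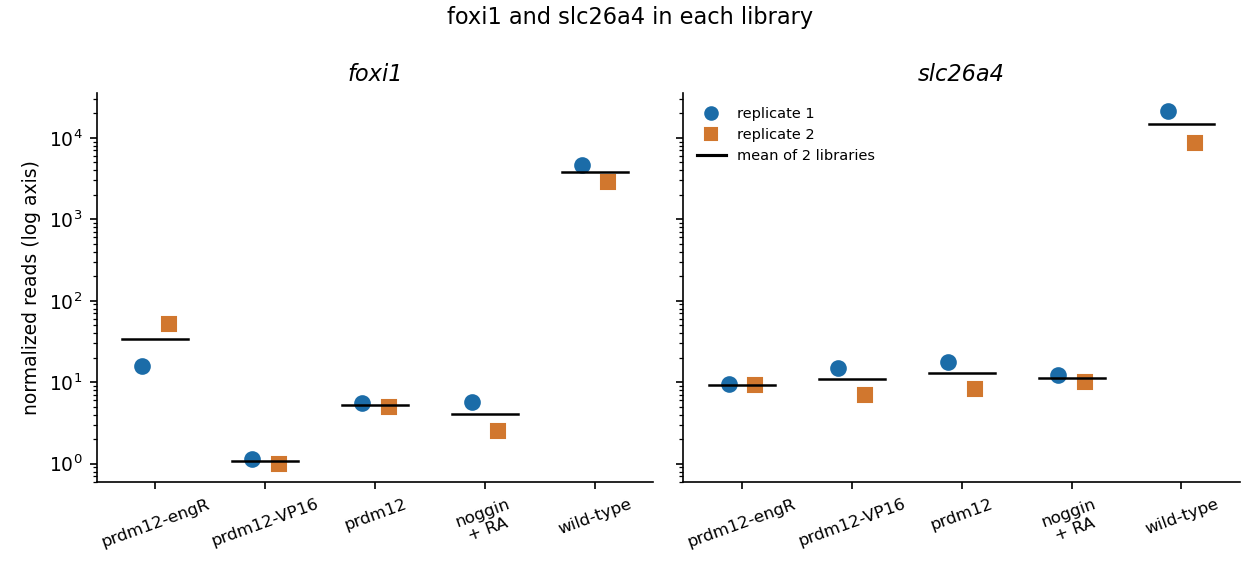
Normalized reads of foxi1 (left) and slc26a4 (right) in each library on a log axis, by group, with circles for replicate 1, squares for replicate 2 and a line at the mean of 2 libraries. Wild-type libraries were the highest for both genes, foxi1 differed among the injected groups from 0.98 to 51.5, and slc26a4 stayed between 6.87 and 17.6.

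With noggin and retinoic acid alone, both genes fell. foxi1 averaged 4.1 ± 2.25 normalized reads in noggin + RA caps and 3765 ± 1287 in wild-type caps (SD, n = 2 each). The log2 fold change was -9.56 ± 0.63 (SE; limma, adjusted p = 1.77e-05), on a log2(value + 1) scale that understates the change of low genes. slc26a4 averaged 11.1 ± 1.53 in noggin + RA caps and 15007 ± 8860 in wild-type caps (SD, n = 2 each), a log2 fold change of -10.14 ± 0.58 (limma, adjusted p = 8.77e-06).

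These changes were large among all genes. In this comparison 21.4% of the 12937 genes tested were called lower and 22.3% higher at an adjusted p under 0.05, and the median over all genes was 0.02. By fold change, slc26a4 ranked 26th and foxi1 48th from the lowest. Counted in reads, foxi1 was 892.1-fold lower (95% counting interval 484.8 to 1861) and slc26a4 1295-fold lower (889.6 to 1965) in noggin + RA caps than in wild-type caps. Counting intervals cover counting error only, because reads are not independent molecules. Nothing in the labels ties the replicates to separate clutches, so p-values cover no more than the spread between these libraries, and that spread may be technical.

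The groups with a prdm12 construct had the same direction against wild-type caps. Against those controls the log2 fold change of foxi1 was -6.95 in prdm12-engR caps (limma, adjusted p = 8.14e-05), -10.79 in prdm12-VP16 caps (9.46e-06) and -9.19 in prdm12 caps (2.11e-05). That of slc26a4 was -10.37 in prdm12-engR caps (limma, adjusted p = 1.05e-05), -10.25 in prdm12-VP16 caps (8.16e-06) and -10.02 in prdm12 caps (1.05e-05). Called lower in these comparisons were 20.8%, 21.5% and 21.1% of all genes, for prdm12-engR, prdm12-VP16 and prdm12 in that order. All these comparisons share the wild-type libraries. Without replicate 1 of prdm12-engR, the prdm12-engR values were -6.12 for foxi1 (limma, adjusted p = 0.000809) and -10.37 for slc26a4 (limma, adjusted p = 0.000304).

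The 2 wild-type libraries were not alike for these genes. Replicate 1 had 1.64 times the foxi1 and 2.43 times the slc26a4 of replicate 2. Of the 8417 genes with a wild-type mean of at least 100, 465 (5.52%) were more than 2-fold higher in replicate 1. Over all these genes 51.1% were higher in replicate 1. Of the ionocyte lists at that level, 4 of 4 regulators, 8 of 17 transport genes and 15 of 20 V-ATPase genes were higher in replicate 1, and 1, 2 and 0 by more than 2-fold. Single ionocyte genes with a gap, chosen after their values were seen, were these: slc4a9 had 1264 and 479.3 normalized reads, ca12 had 1112 and 537.3, and ubp1 had 1461 and 651.1. Others were nearly level: atp6v1b1 had 9831 and 9544 and scnn1b had 1969 and 2177. Among multiciliated markers, 13 of 14 with a wild-type mean of at least 100 were higher in replicate 1, and the part of cell makeup in the gap was not tested.

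Most other ionocyte genes that were tested fell beside foxi1 and slc26a4 in noggin + RA caps against wild-type caps. Among other ionocyte regulators, 4 of 9 in the table had enough reads to test. Of these, 0 rose and 3 fell, with a median log2 fold change of -2.77 against 0.02 over all genes. Over all genes 21.4% were called lower and 22.3% higher. ubp1, a grainyhead-like factor of frog ionocytes, had 7.32 and 6.69 normalized reads in noggin + RA caps against 1461 and 651.1 in wild-type caps, and fell (-6.93 on the log2 scale; limma, adjusted p = 6.49e-05). dmrt2, a DM-domain factor, fell by 3.18 on the log2 scale (limma, adjusted p = 0.00411) and esrrg, an orphan nuclear receptor, fell by 2.35 (limma, adjusted p = 0.00278). TFCP2L1, a relative of ubp1 known from kidney collecting duct, changed by -0.97 (limma, adjusted p = 0.24).

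The relatives of foxi1 had far fewer reads than foxi1 in wild-type caps. For foxi2, both wild-type libraries still lay above every injected library. foxi2 had 1.04 and 0 normalized reads in prdm12-engR caps, 0 and 0 in prdm12-VP16 caps, 0 and 0 in prdm12 caps, 0 and 0.84 in noggin + RA caps and 43.7 and 44.9 in wild-type caps. Its mean was below the minimum of 10 for testing, as were those of foxi4.1 and foxi4.2, whose highest wild-type values were 8.75 and 15.3. Of the foxi genes in the table foxi1 was the one that reached this minimum.

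Of the V-ATPase, the pump that acidifies vesicles in every cell and the outside of ionocytes, 22 of 24 listed genes were in the table and tested. In noggin + RA caps 17 fell and 2 rose against wild-type caps, with a median log2 fold change of -1.51. Over all genes 21.4% were called lower and 22.3% higher. The sizes fell apart by isoform. atp6v1b1, the B subunit isoform of mammalian intercalated cells, had 11.4 and 15.9 normalized reads in noggin + RA caps against 9831 and 9544 in wild-type caps (-9.39 on the log2 scale; limma, adjusted p = 1.55e-05). atp6v1b2, its widely used counterpart, had 2394 and 3524 in noggin + RA caps against 8528 and 5203 in wild-type caps (-1.20; limma, adjusted p = 0.029).

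The same split was seen for other subunits with a tissue-restricted isoform, here named after their values were seen where they are the widely used partner. atp6v1c2 had a log2 fold change of -10.25, atp6v0a4 of -9.87 and atp6v1g3 of -8.81, each past the test, which placed them beside foxi1 at -9.56 and slc26a4 at -10.14. The partners atp6v1c1 at -1.0 and atp6v1g1 at -1.41 also fell, by less, and atp6v0a1 at 0.96 did not pass (limma, adjusted p = 0.146). Those that rose were ATP6V1G2 (3.88), known from mammalian brain, and atp6v0e2 (7.27), which had 191.9 and 256.0 normalized reads in noggin + RA caps against 0 and 1.09 in wild-type caps. No difference between isoforms was tested.

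Of the ion transport genes, 28 of 30 were in the table and 24 were tested. In noggin + RA caps 13 fell and 3 rose against wild-type caps, with a median of -2.35. Over all genes 21.4% were called lower and 22.3% higher. With the replicate block 14 fell and 6 rose, where 28.7% of all genes were lower and 29.6% higher. scnn1b, a subunit of the epithelial sodium channel, had 4.07 and 2.51 normalized reads in noggin + RA caps against 1969 and 2177 in wild-type caps (-8.94; limma, adjusted p = 8.64e-06). slc4a9, an anion exchanger of mammalian intercalated cells, had 2.44 and 0 in noggin + RA caps against 1264 and 479.3 in wild-type caps (-8.72; limma, adjusted p = 6.07e-05). rhcg, an ammonia transporter, fell by 7.64 on the log2 scale. aqp3, a water and glycerol channel, rose by 5.28, atp1b3, a sodium pump subunit, by 4.51 and slc12a1, a salt cotransporter of the mammalian kidney, by 4.36.

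Of 7 carbonic anhydrases tested, which supply bicarbonate and protons to such transporters, 4 fell and 2 rose in noggin + RA caps against wild-type caps, with a median of -2.66. The genes ca12 (-8.55), ca7 (-5.87), ca2 (-5.14) and ca5b (-2.66) fell on the log2 scale, while ca14 (8.77) and ca8 (2.83) rose. Of 7 other SLC26 family genes tested, 4 fell and 2 rose, with a median of -1.82. Over all genes 21.4% were called lower and 22.3% higher, so the 2 rises in each family were near the share of all genes. slc26a6, which exchanges chloride for bicarbonate or oxalate, rose by 5.21 on the log2 scale and had 253.7 and 174.8 normalized reads in noggin + RA caps against 6.62 and 3.28 in wild-type caps. slc26a9 rose by 2.42, and slc26a2 (-3.64), slc26a7 (-2.89), slc26a5 (-2.28) and slc26a11 (-1.82) fell. The table names 2 further lines slc26a3.1 and slc26a3.2, which lie 31584 and 148336 bp from slc26a4 on its scaffold and are not in these counts. They were too low to test, with at most 1.03 normalized reads in any injected library and at most 6.62 in a wild-type library. The SLC26 calls leaned on single libraries: without replicate 2 of the wild-type caps 1 fell, and without replicate 1 of the noggin + RA caps 2 fell and 1 rose.

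**Figure D2:**
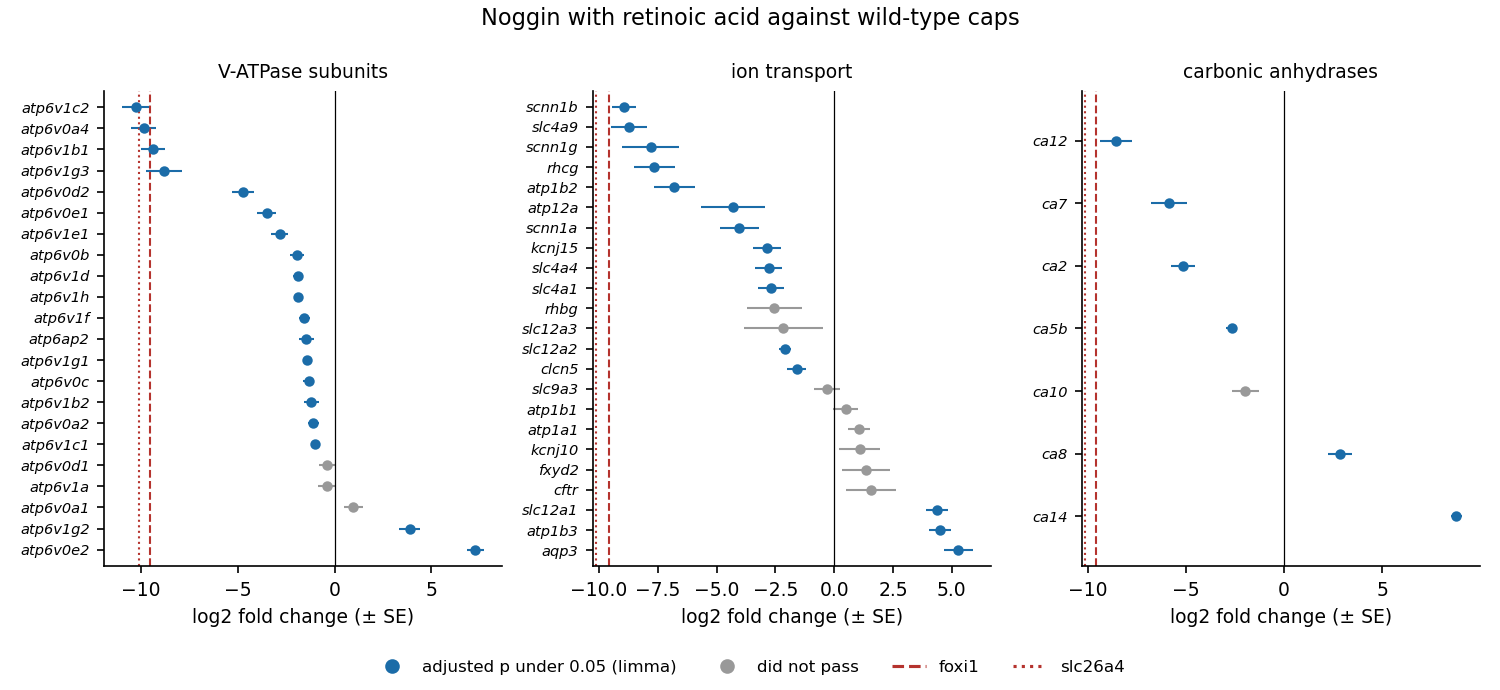
Log2 fold change with its SE for V-ATPase subunits, ion transport genes and carbonic anhydrases in noggin + RA caps against wild-type caps (1 transport gene is not drawn), with blue points past an adjusted p of 0.05 and red lines at foxi1 (dashed) and slc26a4 (dotted). atp6v1c2, atp6v0a4, atp6v1b1 and atp6v1g3 lay near both lines and other V-ATPase subunits lay closer to 0.

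Markers of the other skin cell types changed beside them. In noggin + RA caps against wild-type caps, 6 of 7 tested goblet cell lines fell and 0 rose, and 5 of 7 small secretory cell lines fell and 1 rose. Of 15 multiciliated cell genes, 6 fell and 3 rose. Over all genes 21.4% were called lower and 22.3% higher there, so none of these 3 lists rose more often than all genes. The summed level of the epidermal list ranged from 17528 to 25663 normalized reads in noggin + RA caps and from 606965 to 742105 in wild-type caps. The multiciliated list was split, with 9 genes below 0, 6 above and a median of -0.35. The part of these cell types in the falls of foxi1 and slc26a4 was not tested.

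Among the injected groups, the constructs were compared with noggin + RA caps and with each other, which sets the prdm12 forms apart while noggin and retinoic acid are shared. foxi1 differed between the fusion proteins. It averaged 1.07 ± 0.120 normalized reads in prdm12-VP16 caps and 33.6 ± 25.4 in prdm12-engR caps (SD, n = 2 each), a log2 fold change of -3.84 ± 0.63 (limma, adjusted p = 0.00864). In that comparison 8.70% of all genes were called lower and 3.42% higher.

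In reads, foxi1 had 2 in prdm12-VP16 caps and 65 in prdm12-engR caps, a ratio of 0.0315 after scaling (95% counting interval 0.00373 to 0.118). The difference held without replicate 1 of prdm12-engR, at -4.67 (limma, adjusted p = 0.0216). It did not pass without replicate 2 of prdm12-engR, at -3.01 (limma, adjusted p = 0.0656), nor with the 2 compared groups fitted alone (limma, adjusted p = 0.0563).

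Against noggin + RA caps, foxi1 in prdm12-engR caps had a log2 fold change of 2.61 ± 0.63 and did not pass (limma, adjusted p = 0.0701), in a comparison where 2.41% of all genes were called higher. The libraries had 15.6 and 51.5 normalized reads in prdm12-engR caps and 5.69 and 2.51 in noggin + RA caps. Paired by replicate number, the differences were 1.31 and 3.90, and with the replicate number as a block the adjusted p was 0.0368 (limma). Without replicate 1 of prdm12-engR the value was 3.44 (limma, adjusted p = 0.0915) and without replicate 2 it was 1.78 (limma, adjusted p = 0.417). In reads the ratio was 8.17 (95% counting interval 4.17 to 17.8).

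Between prdm12-engR and prdm12 caps, foxi1 differed by 2.24 ± 0.63 (limma, adjusted p = 0.561), and 0 of 12937 genes were called by limma or edgeR in that comparison, against 178 by DESeq2 and 679 at an unadjusted p under 0.05. DESeq2 called foxi1 there at 2.68 (adjusted p = 0.0261). In prdm12-VP16 caps, foxi1 differed by -1.60 from prdm12 caps (limma, adjusted p = 0.223), where 3.11% of all genes were called lower. It differed by -1.23 from noggin + RA caps (limma, adjusted p = 0.838), with a ratio in reads of 0.257 (95% counting interval 0.0274 to 1.21). In this last comparison limma and edgeR called 0 genes, DESeq2 called 127, and 868 passed an unadjusted p under 0.05. Between prdm12 and noggin + RA caps the difference was 0.37 with a 95% interval of -1.09 to 1.82 (limma, adjusted p = 1), where 0.162% of all genes were called.

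slc26a4 did not pass in any comparison among the injected groups. Its log2 fold change was 0.12 between prdm12-VP16 and prdm12-engR caps, with a 95% interval of -1.22 to 1.46 (limma, adjusted p = 0.926). It was -0.22 in prdm12-engR caps against noggin + RA caps, with an interval of -1.56 to 1.11 (limma, adjusted p = 0.922). In prdm12-VP16 caps against noggin + RA caps it was -0.11 (interval -1.45 to 1.23), and in prdm12 caps against noggin + RA caps 0.12 (interval -1.22 to 1.46). These intervals allow differences of more than 2-fold in either direction. Differences within them were not detectable with 18 to 29 reads and 2 libraries per group.

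The order of foxi1 levels by group mean was wild-type, prdm12-engR, prdm12, noggin + RA and prdm12-VP16. Of the neighbours in that order, the first pair differed, and no other neighbouring pair passed the test. For slc26a4 the order was wild-type, prdm12, noggin + RA, prdm12-VP16 and prdm12-engR, and again the wild-type caps were the ones that stood apart.

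The ratio of slc26a4 to foxi1 puts both patterns in 1 number. It is a ratio of normalized reads, not corrected for length, so its differences between libraries are what can be read. It was 0.600 and 0.180 in prdm12-engR caps, 13.0 and 7.01 in prdm12-VP16 caps, 3.17 and 1.67 in prdm12 caps, 2.14 and 4.0 in noggin + RA caps, and 4.55 and 3.06 in wild-type caps. The prdm12-engR libraries had the lowest ratios and the prdm12-VP16 libraries the highest. The ratio of noggin + RA caps overlapped that of wild-type caps, although both genes were far lower in noggin + RA caps. The difference between the effects on the 2 genes was not tested, and the prdm12-VP16 ratios rest on 1 read of foxi1 in each library.

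**Figure D3:**
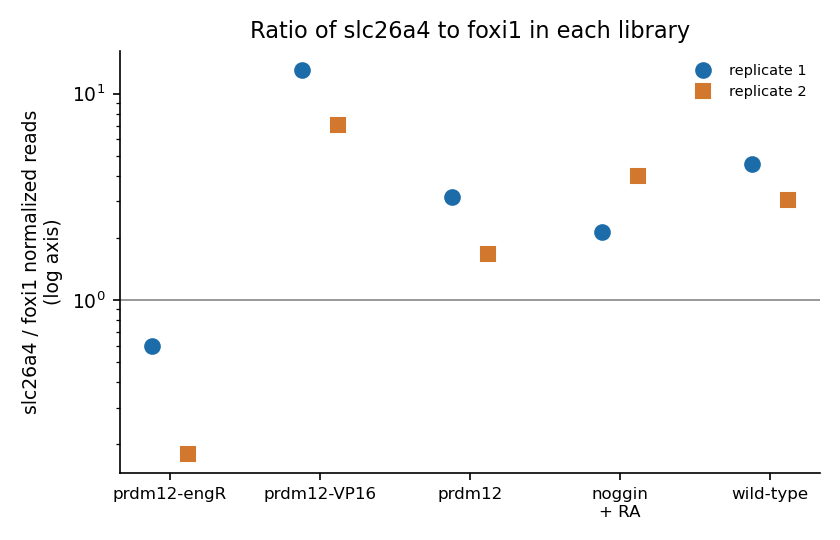
Ratio of slc26a4 to foxi1 normalized reads in each library on a log axis, by group, with circles for replicate 1, squares for replicate 2 and a line at 1. Both prdm12-engR libraries, at 0.600 and 0.180, lay below 1 and all other libraries lay above it.

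The other ionocyte genes were then set beside foxi1 in prdm12-engR caps against noggin + RA caps. None of the 4 regulators, 24 transport genes or 22 V-ATPase genes was called by limma, and at an unadjusted p under 0.05 there were 1, 8 and 7 higher and 0, 1 and 0 lower, where 10.1% of all genes were higher and 5.23% lower. edgeR called 0, 2 and 0 higher (2.31% of all genes), and DESeq2 called 1, 4 and 3 (6.14%). With the replicate block, limma called 2, 7 and 4 higher (7.21% of all genes) and none lower. Their median log2 fold changes were 0.90, 1.06 and 0.69, against 0.03 over all genes, and 22 of 22 V-ATPase genes and 20 of 24 transport genes were above 0.

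Single genes show how far this went. esrrg had 430.7 and 418.3 normalized reads in prdm12-engR caps against 85.4 and 163.1 in noggin + RA caps (1.84; limma, adjusted p = 0.0644). scnn1b had 12.5 and 28.9 in prdm12-engR caps against 4.07 and 2.51 in noggin + RA caps (2.25; limma, adjusted p = 0.0553). slc12a1 had 246.1 and 145.3 in prdm12-engR caps against 45.5 and 42.7 in noggin + RA caps (2.08; limma, adjusted p = 0.0547). As given above, slc12a1 had also risen in noggin + RA caps against wild-type caps, so this difference led further from its wild-type level. The scnn1b amounts were small against its wild-type levels, as were those of foxi1, which reached 0.892% of its wild-type mean in prdm12-engR caps. Of the carbonic anhydrases, ca10 rose (3.24; limma, adjusted p = 0.0499) and ca14 fell (-2.42; limma, adjusted p = 0.00705), and neither call held when any prdm12-engR or noggin + RA library was left out. The ca10 call held in 2 of the 10 fits that left out a library, those without a prdm12 library, and edgeR did not call it. The ca14 call held in 6 of the 10 and with edgeR.

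**Figure D4:**
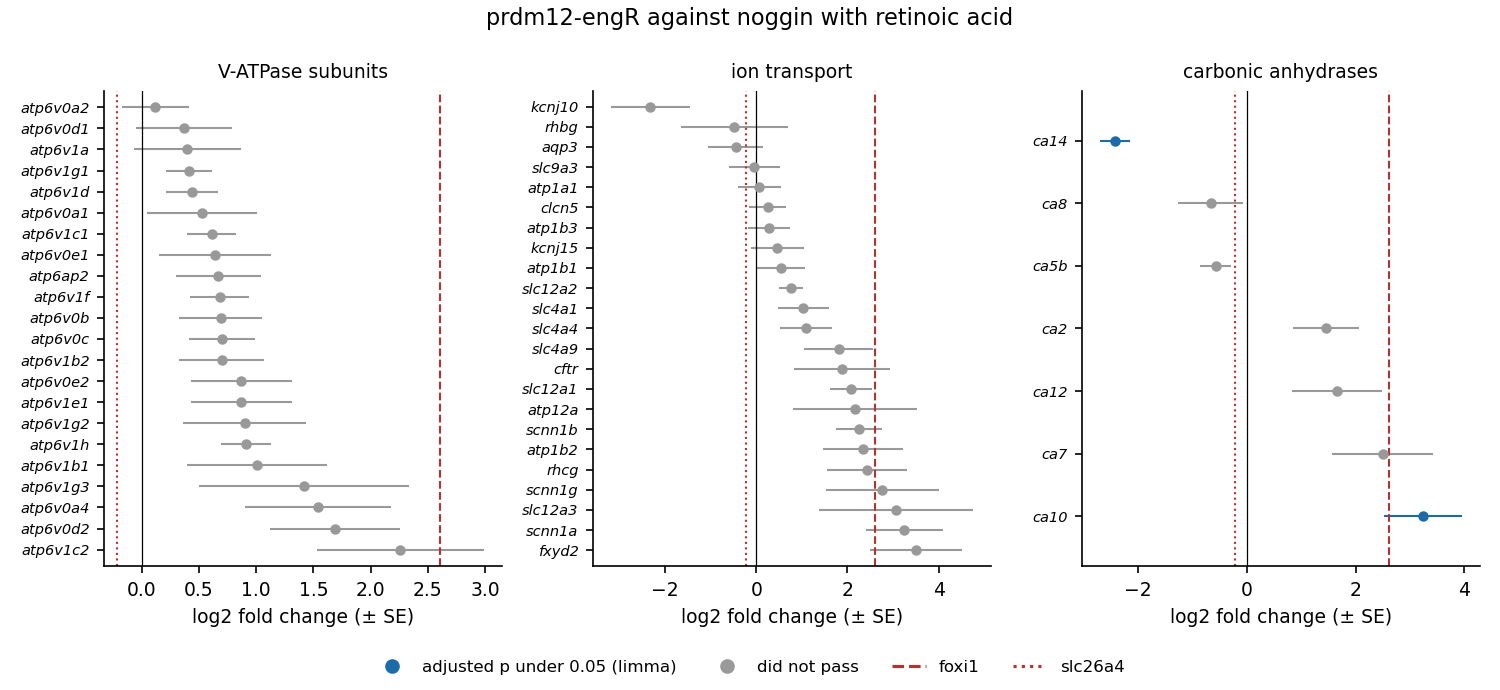
Log2 fold change with its SE for V-ATPase subunits, ion transport genes and carbonic anhydrases in prdm12-engR caps against noggin + RA caps (1 transport gene is not drawn), with blue points past an adjusted p of 0.05 and red lines at foxi1 (dashed) and slc26a4 (dotted). ca10 and ca14 were the ones called, all 22 V-ATPase genes lay above 0, and foxi1 at 2.61 lay to the right of each of them.

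In prdm12-VP16 caps against prdm12-engR caps, 9 of 22 V-ATPase genes and 4 of 24 transport genes were lower, beside the fall of foxi1. Higher were 0 and 1. Of all genes, 8.70% were called lower and 3.42% higher, so the 1 higher transport gene was near the share of all genes. The transport genes that fell were slc12a1 (-3.79), scnn1a (-3.71), atp1b2 (-3.26) and scnn1b (-2.48), and kcnj10, an inward rectifier potassium channel, rose by 3.31. The kcnj10 call held in 3 of the 10 fits that left out a library, without replicate 1 of prdm12-engR and without either prdm12 library, and edgeR did not call it. With the replicate block the lower counts were 19 and 8, where 18.6% of all genes were lower, and with libraries left out between 2 and 4 transport genes were lower. Without either prdm12-engR library no V-ATPase gene was called, and without replicate 1 of prdm12-VP16 1 was. Among the regulators, esrrg fell by 2.54 on the log2 scale (limma, adjusted p = 0.00969), a call that was lost without either prdm12-engR library or without replicate 1 of prdm12-VP16.

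In prdm12-VP16 caps against prdm12 caps, slc12a1 (-2.49) and atp6v0c, a proteolipid of the V-ATPase rotor (-1.53), fell on the log2 scale. No other gene of the 3 ionocyte lists was called, where 3.11% of all genes were called lower. With the replicate block 12 V-ATPase genes, 4 transport genes and 1 regulator were lower, where 11.6% of all genes were. Neither call held when any prdm12-engR, prdm12 or noggin + RA library was left out. In prdm12 and in prdm12-VP16 caps against noggin + RA caps, limma and edgeR called none of them, and DESeq2 and the replicate block called none either. At an unadjusted p under 0.05, 4 of the 50 genes were higher and 0 lower in prdm12 caps, where 4.18% and 2.22% of all genes were, and 1 was higher and 3 were lower in prdm12-VP16 caps, where 1.81% and 4.90% were.

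Some genes of the epidermal and placodal lists were also higher in prdm12-engR caps than in noggin + RA caps, and in prdm12 caps both lists leaned the same way. Against noggin + RA caps 6 of 21 epidermal lines rose and 0 fell, with a median of 2.49. Of all genes, 2.41% were called higher and 1.02% lower there. With the replicate block 11 lines rose, where 7.21% of all genes were higher. gata3, a factor of non-neural ectoderm and also of some neurons, had 1601 and 1097 normalized reads in prdm12-engR caps. In noggin + RA caps it had 93.5 and 55.2 (4.19; limma, adjusted p = 0.0075). krt12, a keratin, had 1034 and 1644 in prdm12-engR caps against 144.7 and 208.3 in noggin + RA caps. Its log2 fold change was 2.90 (limma, adjusted p = 0.00831). tfap2c, an AP-2 factor, rose by 3.67 and grhl2, a grainyhead factor, by 3.42 on the log2 scale. The summed level of the list ranged from 28679 to 35458 normalized reads in prdm12-engR caps, from 37483 to 59989 in prdm12-VP16 caps, from 23209 to 26204 in prdm12 caps and from 17528 to 25663 in noggin + RA caps. The sum was thus highest, among the injected groups, in the prdm12-VP16 caps, but most lines did not follow the sum. In prdm12-VP16 caps against prdm12-engR caps, 17 of 21 lines were below 0, with a median of -1.82. There 8 lines were called lower and 1 higher, where 8.70% and 3.42% of all genes were. In prdm12-VP16 caps against noggin + RA caps the list's median was -0.03. In prdm12 caps against noggin + RA caps it was 0.78, with 18 of 21 lines above 0 and 0 called by limma. Between prdm12-engR and prdm12 caps limma called 0 lines, as it called 0 of all genes. DESeq2 called 6 lines higher there, and 155 of all 12937 genes.

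Of 11 placodal and otic genes, 4 rose in prdm12-engR caps against noggin + RA caps, where 2.41% of all genes were called higher. By log2 fold change, 7 of the 11 were above 0 and 4 below. Those that rose were pax2 (5.03), hmx3 (6.46), pax8 (3.19) and hmx2 (6.02), all transcription factors of the ear and of parts of the neural tube. Without either prdm12-engR library none of the epidermal and none of the placodal genes was called. Without replicate 1 of noggin + RA caps 3 and 1 were called, and without its replicate 2 1 and 2. Of 7 goblet cell lines none was called by limma or edgeR. Higher were 1 by DESeq2, 2 with the replicate block and 2 at an unadjusted p under 0.05. Of all genes, 6.14% were higher by DESeq2, 7.21% with the block and 10.1% at that unadjusted p. Of 7 small secretory cell lines, maob, a monoamine oxidase, rose by 4.01 on the log2 scale, a call lost when any prdm12-engR, noggin + RA or wild-type library was left out. Of 15 multiciliated genes 9 fell and 0 rose, in a comparison where 1.02% of all genes were called lower. That count was 0 without either prdm12-engR library or without replicate 1 of noggin + RA, and 1 without its replicate 2. The part of these cell types in the foxi1 values was not tested. In prdm12 caps against noggin + RA caps, 8 of the 11 placodal and otic genes were above 0, with a median of 0.97. There limma called 1 higher, where 0.162% of all genes were called in either direction. Between prdm12-engR and prdm12 caps limma and DESeq2 called 0 of the 11.

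The genes with profiles most like each of the 2 genes were not the same ones. Likeness was the root mean square difference of centred log2(value + 1) values over the 10 libraries, among 12101 genes with a symbol. Nearest to foxi1 were agr2, a disulfide isomerase of secretory cells (0.55), krt12 (0.59), angpt4, an angiopoietin (0.62), tmprss2, a membrane serine protease (0.67), and dnase1l3, a nuclease (0.69). slc26a4 came 133rd at 1.46. agr2 had 20.9 and 51.5 normalized reads in prdm12-engR caps, 3.45 and 1.96 in prdm12-VP16 caps, 8.31 and 9.91 in prdm12 caps, 6.50 and 10.9 in noggin + RA caps, and 3785 and 3682 in wild-type caps. Its prdm12-engR libraries were the highest of the injected groups and its prdm12-VP16 libraries the lowest. The nearest genes were chosen for their likeness in these same libraries, so a shared order is no separate evidence.

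Nearest to slc26a4 was a gene that the table describes as caveolin 3 (0.33), a scaffold protein of membrane pits. It had 11.5 and 14.4 normalized reads in prdm12-engR caps, 12.7 and 9.82 in prdm12-VP16 caps, 12.9 and 7.43 in prdm12 caps, 10.6 and 10.0 in noggin + RA caps, and 24775 and 12408 in wild-type caps. Its libraries lay between 7.43 and 14.4 in the injected groups. Between prdm12-engR and noggin + RA caps it differed by 0.30 on the log2 scale and did not pass (limma, adjusted p = 0.856). Its wild-type replicate 1 was about 2 times replicate 2. Next came a gene described as similar to X-epilectin (0.49), a hypothetical protein (0.56), MSLN, mesothelin (0.57), and a gene described as similar to fucolectin (0.58). foxi1 came 85th from slc26a4.

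**Figure D5:**
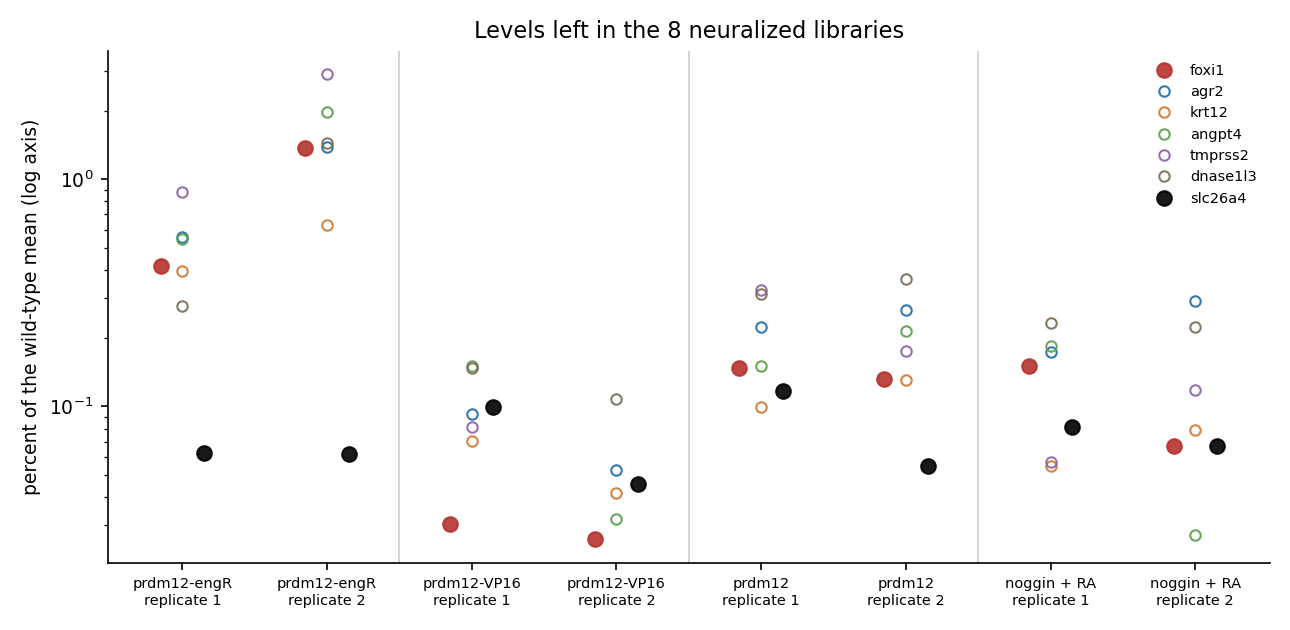
Percent of the wild-type mean on a log axis in the 8 libraries with noggin and retinoic acid, for foxi1 (red), slc26a4 (black) and the 5 genes most like foxi1 (open circles), with tmprss2 in replicate 2 of prdm12-VP16 at 0 and not drawn. foxi1 reached 1.37% in replicate 2 of prdm12-engR and 0.0260% in replicate 2 of prdm12-VP16, while slc26a4 stayed between 0.0458% and 0.117%.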

How the data were processed

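Libraries were non-stranded and made from poly-A RNA, per the labels' protocols. The submitters' processing notes list Bowtie, Bowtie2, HOMER and edgeR and give neither steps nor versions. The authors deposited 1 normalized signal for each gene, in effect the count scaled by a single factor in each library. In each library 100% of the lower non-zero values were whole multiples of 1 read, within 0.05 beyond the rounding of the values, so reads were recovered. Higher values, such as those of both genes in wild-type caps, were not checked in this way and were rounded to the nearest read. The 5 special counter lines were left out, and records not aligned uniquely were 23.8% to 44.0% per library.

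Differences were tested with limma 3.58.1 (R 4.3.3, trend by intensity) on log2(value + 1), keeping the 12937 genes whose mean reached 10, in 1 fit of all 10 libraries with group as the only term, two-sided, with Benjamini-Hochberg adjustment per comparison and a threshold of 0.05. It was tested on simulated data. Alternatives were edgeR 4.0.16 and DESeq2 1.42.0 on recovered reads, pseudocounts of 0.25 and 4, no filter, a mean of at least 50, quantile, TMM and median ratio scaling, no trend, the 2 compared groups alone, each library left out, and the replicate number as a block. Replicate numbers are those of the titles and column names. Differences between replicates correlated across genes at 0.22 to 0.79 in 10 of 10 pairs of groups. That these numbers pair the libraries was inferred from the correlations, since no label says so.

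The genes and lists were chosen with earlier results of these data known. Named were foxi1 and slc26a4, every list member in a count of 5 or fewer, otherwise up to 4 with the smallest p, and the 5 genes of most similar profile. A part of these is given in the text. Of the transport genes counted, 1 is not reported here by itself. Columns with a code in place of a name were taken as wild-type, the single group that no other column names. Counting intervals are exact.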

Additional observations from a re-analysis of the deposited data

Results flagged for a closer look

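The effects of the 2 fusion proteins on foxi1 differed in the main fit. Each effect was taken against noggin + RA caps, and the effect of prdm12-VP16 minus that of prdm12-engR was -3.84 on the log2 scale (limma, adjusted p = 0.00864). The 2 libraries had 1.15 and 0.98 normalized reads in prdm12-VP16 caps and 15.6 and 51.5 in prdm12-engR caps, and both pairs by replicate number had this direction. On its own, the effect against noggin + RA caps did not pass at -1.23 for prdm12-VP16 (limma, adjusted p = 0.838) or at 2.61 for prdm12-engR (limma, adjusted p = 0.0701). The prdm12-engR effect passed with the replicate block (limma, adjusted p = 0.0368) and with DESeq2 (adjusted p = 0.00177), and under no other alternative run. The difference between the fusions did not pass with the 2 compared groups fitted alone, and it was -3.01 without replicate 2 of prdm12-engR. The labels of replicate 1 of prdm12-engR name both fusions, its column header names engR, and its foxi1 value cannot show which one it carried. Without that library the difference was -4.67.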

How the results depend on the processing

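The falls of foxi1 and slc26a4 against wild-type caps kept their direction and passed the test in each injected group under every alternative run. Leaving out each library in turn gave -10.02 to -9.09 for foxi1 and -10.78 to -9.50 for slc26a4 in noggin + RA caps.

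For foxi1, prdm12-engR against noggin + RA caps passed with DESeq2 (3.03) and with the replicate block (2.61), and prdm12-engR against prdm12 caps passed with DESeq2 (2.68). For prdm12-VP16 against prdm12-engR caps, the 2 groups alone gave -3.84 and did not pass, and leaving out each library gave -4.67 to -3.01. For prdm12 against noggin + RA caps, foxi1 turned to -0.01 with quantile scaling and ranged from -0.10 to 0.83 with libraries left out.

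For slc26a4 the small differences among injected groups changed sign. With quantile scaling they were -0.14 for prdm12 against noggin + RA caps, 0.19 for prdm12-VP16 against noggin + RA caps and 0.33 for prdm12-VP16 against prdm12 caps. With libraries left out these ranged from -0.38 to 0.62, from -0.62 to 0.40 and from -0.74 to 0.29. The range was -0.84 to 0.16 for prdm12-engR against prdm12 caps and -0.39 to 0.63 for prdm12-VP16 against prdm12-engR caps. The cause was not tested.

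Among ionocyte regulators, 5 were called in noggin + RA caps against wild-type caps with no filter. In prdm12-engR caps against noggin + RA caps, where the main count was 0 in each list, DESeq2 called 1 regulator, 4 transport and 3 V-ATPase genes and the replicate block 2, 7 and 4. Transport genes there numbered 1 with a pseudocount of 4, 2 with no trend, 1 with the 2 groups alone, 2 with edgeR, and 0 to 1 with libraries left out. Apart from foxi1 in prdm12-engR against noggin + RA caps, the block changed no call of foxi1 or slc26a4.

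Over all genes, prdm12-engR against noggin + RA caps had 444 calls, 1414 with the block and 1169 with DESeq2. For prdm12-VP16 against prdm12-engR caps these were 1567, 3770 and 2413, with 640 for the 2 groups alone. For prdm12 against noggin + RA caps they were 21, 121 and 250, for prdm12-VP16 against prdm12 caps 500, 2125 and 1310 with 0 for the 2 groups alone, for prdm12-engR against prdm12 caps 0, 13 and 178, and for prdm12-VP16 against noggin + RA caps 0, 44 and 127. The count for prdm12 against noggin + RA caps was 45 at a pseudocount of 4, 38 with no trend and 0 for the 2 groups alone. These counts leaned on single libraries. For prdm12-engR against noggin + RA caps 4 were called without either prdm12-engR library, and 52 and 46 without replicate 1 and replicate 2 of noggin + RA. For prdm12-VP16 against prdm12-engR caps 471 and 326 were called without replicate 1 and replicate 2 of prdm12-engR and 735 without replicate 1 of prdm12-VP16. For prdm12-VP16 against prdm12 caps the count ranged from 58 without replicate 1 of prdm12 to 858 without replicate 2 of prdm12-VP16, for prdm12-VP16 against noggin + RA caps it was 197 without replicate 2 of prdm12-VP16 and at most 1 with any other library left out, and for prdm12 against noggin + RA caps it ranged from 0 to 33. The low levels of both genes in injected caps, down to 1 read per library, limit what can be seen there.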

Other observations

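Other values, each chosen after it was seen, may be worth a second look. atp12a, a proton and potassium pump of frog skin, was higher in replicate 1 than in replicate 2 of each group. It had 606.9 and 90.7 normalized reads in prdm12-engR caps, 62.2 and 34.4 in prdm12-VP16 caps, 364.9 and 42.1 in prdm12 caps, 121.1 and 21.8 in noggin + RA caps, and 2372 and 466.1 in wild-type caps. slc12a3, a salt cotransporter, was high in 1 library, with 150.2 and 2.06 normalized reads in prdm12-engR caps, 1.15 and 0 in prdm12-VP16 caps, 12.9 and 4.13 in prdm12 caps, 5.69 and 0 in noggin + RA caps, and 9.26 and 12.04 in wild-type caps. On the Xenopus tropicalis scaffold of foxi1 lies slc4a9, 790302 bp away among 17 other genes, which fell by 8.72 on the log2 scale in noggin + RA caps against wild-type caps.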
